A study of Mus musculus with 4 samples.

Results

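RNA of 42 genes of the RAS to MAPK pathway was followed in reporter-high and reporter-low epithelial cells of the mouse stomach corpus. The genes were a listed set, grouped by their role in the pathway in 5 tiers: 5 RAS GTPases, 8 exchange and adaptor factors, 7 GTPase activators, 8 genes of the RAF-MEK-ERK kinase tier, and 14 feedback and output genes. All 42 were found among the 55335 rows of the deposited table. Of these, 32 had a mean of at least 1 CPM (counts per 1000000 reads in genes) and entered the test, and 10 lay under that level and are given by their reads. The list does not hold every gene of each tier.

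Both fractions came from C57BL/6 mice aged 6 to 8 weeks with the genotype Iqgap3-2A-tdTomato, in which the red fluorescent protein is made from the Iqgap3 locus. Iqgap3 encodes a scaffold protein that is made in dividing cells. The IQ3pos fraction was sorted as Iqgap3high and the IQ3neg fraction as Iqgap3low/neg. All cells carried the epithelial surface protein EpCAM and excluded the dead-cell dye DAPI. For each fraction, 3 mice were pooled for a first library (IQ3pos_1909A, IQ3neg_1909B) and 4 mice for the other (IQ3pos_1910A, IQ3neg_1910B). The labels do not say whether the IQ3pos and IQ3neg pools of the same size came from the same mice. Differences given by pool size are therefore descriptions only. Libraries were made by SMART-Seq2, which amplifies full-length cDNA from little RNA. The reporter allele was present in IQ3neg mice as well. Since each library is a pool, p-values rest on the spread between 2 pools per fraction, part of which may be technical. The test also draws the spread of each gene toward that of genes of like level.

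RAS proteins are switches at the membrane that are active with GTP bound and silent with GDP bound. Exchange factors, brought to activated receptors by adaptors, load them with GTP, and GTPase-activating proteins make them hydrolyse it. Active RAS recruits RAF kinases, which phosphorylate MEK, which phosphorylates ERK, and ERK then drives transcription of growth genes and of its own inhibitors. In the stomach, this cascade is best known for carrying growth factor signals to dividing epithelial cells. It is switched mainly by GTP loading and phosphorylation, which RNA levels do not measure.

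The libraries held 90714929 and 279125309 reads in genes in IQ3pos and 115016307 and 418401262 in IQ3neg, for the pools of 3 and 4 mice. The 4 secretory transcripts Clps, Pla2g1b, Pgc and Chia1 took 6.00% and 2.11% of the reads in IQ3pos and 50.8% and 48.9% in IQ3neg. Every other gene is diluted by such a load, and the median gene was 1.60-fold higher in IQ3pos in the deposited CPM. All levels below are therefore CPM scaled by TMM factors (trimmed mean of M values, which set the bulk of the genes level between libraries) unless the deposited CPM are named. Iqgap3 itself had 0.175 and 6.90 scaled CPM in IQ3pos, from 20 and 2602 reads, against 0.0633 and 0.528 in IQ3neg, from 5 and 189 reads (log2 difference 1.26, SE 1.17, limma adjusted p = 0.616). It was higher in IQ3pos among the pools of 3 mice and among those of 4, but the IQ3pos pool of 3 mice lay below the IQ3neg pool of 4. The 4 general epithelial markers summed to 2513 and 3261 scaled CPM in IQ3pos and 1764 and 3194 in IQ3neg, while 4 endothelial markers summed to less than 1 in every library. Sums of 4 smooth muscle markers were also below 1 in every library (0.0613 and 0.928 in IQ3pos, 0.304 and 0.841 in IQ3neg). The remaining non-epithelial lists reached higher sums. Sums were 36.9 and 4.82 in IQ3pos and 176 and 77.0 in IQ3neg for 6 mast cell and platelet markers. They were 1.04 and 0.125 against 41.4 and 1.76 for 5 fibroblast markers, and 2.66 and 0.310 against 20.1 and 3.66 for 4 red cell markers. Leukocyte markers are given with Rasgrp1. All 6 markers of dividing cells were higher in both IQ3pos libraries (sums of 806 and 1813 in IQ3pos and 125 and 214 in IQ3neg), as were all 4 pit cell markers (7573 and 7217 in IQ3pos, 1477 and 1595 in IQ3neg) and both parietal cell markers (3126 and 2164 in IQ3pos, 618 and 579 in IQ3neg). All 5 chief cell markers (49040 and 16189 in IQ3pos, 752289 and 588133 in IQ3neg), all 5 enteroendocrine markers (286 and 129 in IQ3pos, 23539 and 11904 in IQ3neg) and all 4 tuft cell markers (432 and 96.2 in IQ3pos, 534 and 1282 in IQ3neg) were lower in both. Of the 2 mucous neck markers, Tff2 was higher in both IQ3pos libraries and Muc6 lower in both. Tff2 had 3363 and 4063 scaled CPM in IQ3pos, against 604 and 697 in IQ3neg. Muc6 had 302 and 302 in IQ3pos, against 383 and 650 in IQ3neg. No marker of these lists was at 0 in all libraries, and their part in the differences of the pathway genes was not tested. In such bulk samples, fewer cells of a type and less RNA per cell cannot be told apart.

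Across all tiers, no pathway gene passed the test between the fractions. The RAS gene of highest level, Nras, stood 1.48-fold higher in IQ3pos, and the kinase genes Braf, Araf and Map2k1 stood 1.79-, 2.17- and 1.83-fold lower in IQ3pos on the scaled values, with overlap in the deposited CPM. In limma-trend on log2(scaled CPM + 1), with Benjamini-Hochberg adjustment over all 13019 genes tested at 0.05, 0 of the 32 members were called higher in IQ3pos and 0 lower. Of all genes, 0.0461% were called higher and 0.184% lower. At an unadjusted p under 0.05, 0 members were higher and 2 were lower (Braf and Ksr2), where 7.63% of all genes were higher and 8.32% lower. The edgeR quasi-likelihood test on recovered reads called 0 members in either direction. DESeq2's Wald test, which called 1064 of its 20742 genes higher and 2063 lower, called 3 of its 40 members lower (Rras, Ksr2 and Dusp5). Both IQ3pos libraries lay above both IQ3neg libraries for 8 members (25.0%), against 24.7% of all genes, and below both for 7 (21.9%), against 23.0%. The members' median log2 difference was 0.17, against 0.04 for all genes. Both shares were near those of the whole table, and the tiers are described below by level and order. With 2 libraries against 2, the smallest two-sided exact permutation p for a single gene is 0.333.

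**Figure D1:**
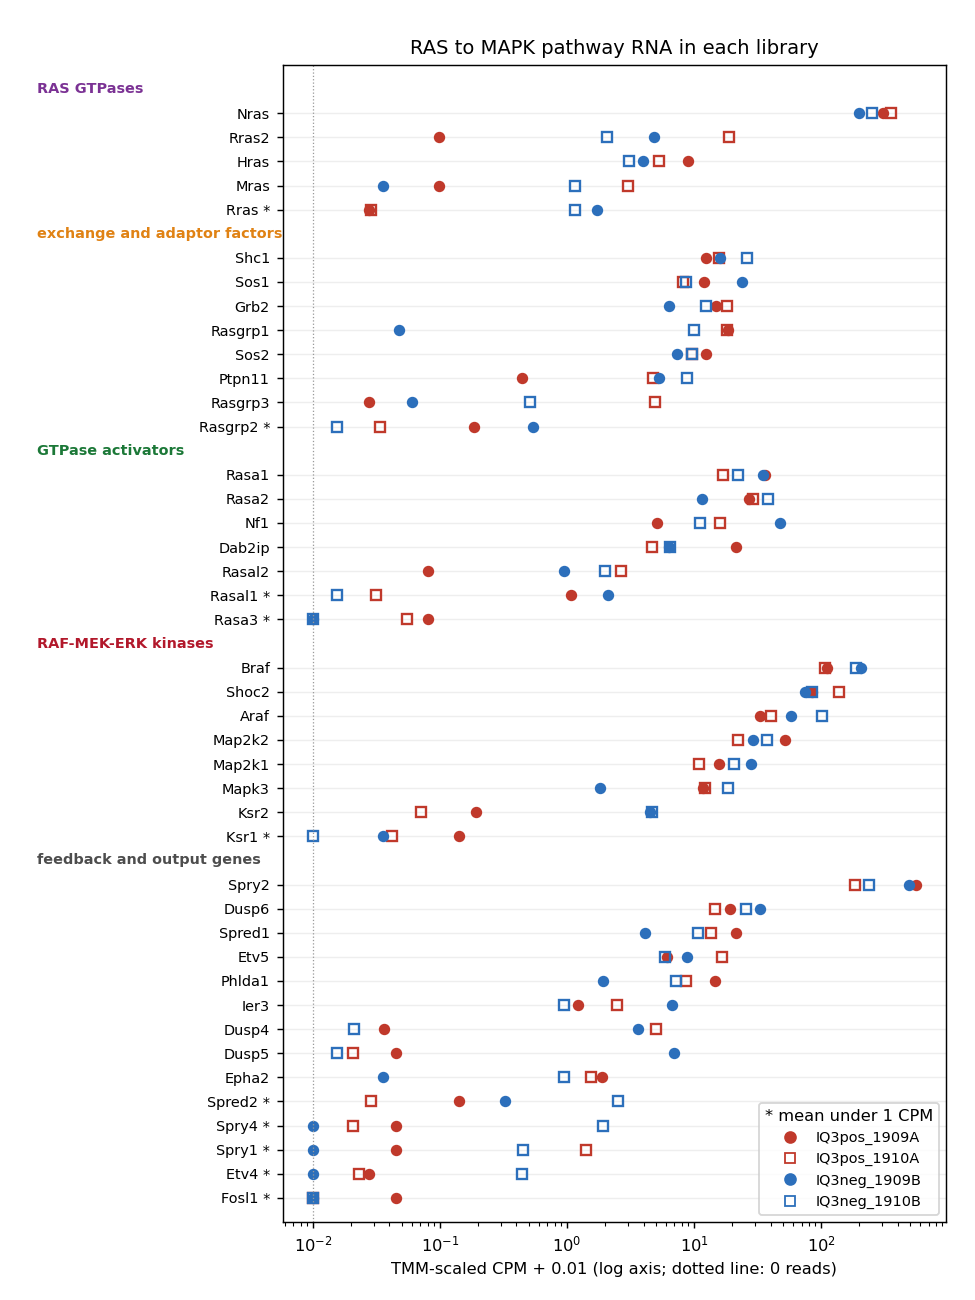
TMM-scaled CPM of the 42 pathway genes in each library (log axis, 0.01 added; asterisk: mean under 1 CPM), by tier, with IQ3pos in red, IQ3neg in blue, circles for the pools of 3 mice and squares for the pools of 4 mice. Nras, Spry2 and Braf lie above 100 in every library, while Rras2 has its IQ3pos pools and Rasgrp1 its IQ3neg pools far apart.

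Per kb of exon, the scale on which genes can be compared with each other, the highest mean level was that of Spry2, an inhibitor of receptor signals to RAS, at 175 scaled CPM per kb. Nras followed at 52.0, Shoc2 at 17.1, Braf at 11.0 and Araf at 8.88. Nras held 57.4 and 66.7 scaled CPM per kb in IQ3pos and 37.0 and 46.8 in IQ3neg. Its range did not touch that of Shoc2, at 15.04 and 24.8 in IQ3pos and 13.5 and 15.3 in IQ3neg. The order of Shoc2 and Braf was clear in IQ3pos, where Braf held 8.08 and 7.73 scaled CPM per kb, but not in IQ3neg, where Braf held 14.7 and 13.6. Araf, at 5.05 and 6.18 in IQ3pos and 8.82 and 15.5 in IQ3neg, overlapped Braf in IQ3neg only.

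Among the RAS GTPases, 4 of 5 were tested, 2 had IQ3pos above IQ3neg without overlap, and none lay below. Of all genes, 24.7% lay above and 23.0% below. Nras, a classical RAS switch protein (chr3:103058285-103067914 on GRCm38), had 306 and 355 scaled CPM in IQ3pos, against 197 and 249 in IQ3neg. Both IQ3pos pools were above both IQ3neg pools, by 0.63 on the log2 scale between the pools of 3 mice and 0.51 between those of 4. The means were 331 ± 34.7 for IQ3pos and 223 ± 36.9 for IQ3neg (SD over 2 libraries), and the log2 difference was 0.57 with an interval of -0.08 to 1.22 (adjusted p = 0.356). Hras, which encodes another classical RAS protein, had 8.96 and 5.29 scaled CPM in IQ3pos, against 3.95 and 3.04 in IQ3neg. Its groups did not overlap either, and its log2 difference of 0.82 had an SE of 0.91 (adjusted p = 0.674). Nras and Hras kept this order without overlap in the deposited CPM and in each of the other 3 scalings tried.

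The RAS-related genes were less even. Rras2, which encodes the RAS-related protein also called TC21, had 0.0875 and 19.0 scaled CPM in IQ3pos, against 4.81 and 2.06 in IQ3neg. The IQ3pos pools were the lowest and the highest of the 4 libraries, so that the log2 difference was -2.42 between the pools of 3 mice and 2.71 between the pools of 4. Mras, whose protein joins SHOC2 in a complex that activates RAF, had 10 and 1134 reads in IQ3pos and 2 and 408 in IQ3neg. It was higher in IQ3pos among the pools of 3 mice and among those of 4. Rras, which encodes a RAS-related regulator of cell adhesion, lay under the filter with 2 and 7 reads in IQ3pos, against 136 and 412 in IQ3neg. In scaled CPM these were 0.0175 and 0.0186 in IQ3pos and 1.72 and 1.15 in IQ3neg, and DESeq2 called it lower (adjusted p = 0.0139) where edgeR did not (adjusted p = 0.299).

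The exchange and adaptor tier held 7 tested genes of 8, of which 3 lay above and 2 below without overlap (all genes: 24.7% and 23.0%). Rasgrp1, a RAS exchange factor opened by diacylglycerol and calcium that is best known from T cells, had the largest positive difference of all members. It had 18.6 and 18.1 scaled CPM in IQ3pos, against 0.0380 and 10.02 in IQ3neg. The IQ3pos pools were nearly equal, and the IQ3neg pool of 3 mice held 3 reads. The log2 difference was 2.52, with an interval of -0.62 to 5.66 (adjusted p = 0.395), and came to 4.24 between the pools of 3 mice and 0.80 between the pools of 4. The 8 leukocyte markers summed to 196 and 35.9 scaled CPM in IQ3pos and 534 and 83.7 in IQ3neg, with 1 of 8 above and 0 below without overlap, and their part in the difference was not tested. Of the T cell genes among them, Cd3e was at 0.0438 scaled CPM or less in every library. Cd3g had 0 reads in both IQ3pos libraries, against 686 and 0 in IQ3neg, and Nkg7 of cytotoxic lymphocytes had 1 and 0 reads in IQ3pos, against 1390 and 0 in IQ3neg. Nearly all reads of Cd3g and Nkg7 were in the IQ3neg pool of 3 mice, and what this means for Rasgrp1 was not tested.

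Grb2, the adaptor that carries SOS to receptors, had 14.8 and 18.1 scaled CPM in IQ3pos, against 6.31 and 12.5 in IQ3neg (log2 difference 0.81, SE 0.71, adjusted p = 0.601). Sos2, an exchange factor brought in by GRB2, had 12.4 and 9.56 scaled CPM in IQ3pos, against 7.26 and 9.55 in IQ3neg, and its separation was no more than a tie between the pools of 4 mice. Its closest relative Sos1 had 12.0 and 8.09 in IQ3pos, against 23.6 and 8.60 in IQ3neg, with the IQ3neg pool of 3 mice alone standing apart. Without the 20 most abundant genes in the scaling, Sos2 and Grb2 overlapped between the fractions.

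Shc1, an adaptor that links phosphorylated receptors to GRB2, had 12.3 and 15.7 scaled CPM in IQ3pos, against 15.9 and 26.2 in IQ3neg. Its groups lay side by side with almost no gap, and its log2 difference of -0.53 (adjusted p = 0.689) became 0.19 in the deposited CPM. Ptpn11, which encodes the phosphatase SHP2 that RAS activation by receptors needs, had 0.429 and 4.73 scaled CPM in IQ3pos, against 5.33 and 8.85 in IQ3neg. The IQ3pos pool of 3 mice was far below the others, and the log2 difference was -1.46 with an SE of 1.11 (adjusted p = 0.577). Both Shc1 and Ptpn11 overlapped between the fractions in the deposited CPM and with TMM factors from all rows of the table. Rasgrp3, a further diacylglycerol-opened exchange factor, had 1862 reads in the IQ3pos pool of 4 mice and at most 179 in any other library. Rasgrp2, an exchange factor mainly for RAP1, lay under the filter with 9 to 20 reads in IQ3pos and 2 to 42 in IQ3neg.

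On the scaled values, no tested GTPase activator separated the fractions. All 5 tested genes of 7 overlapped, and all 5 differed in opposite directions in the pools of 3 and of 4 mice. Over all genes, 52.3% overlapped and 34.4% had opposite directions in the pools. In the deposited CPM, Rasa2 (log2 difference 1.12) and Dab2ip (1.27) were above without overlap, where 40.9% of all genes were. Rasa1, the activator that binds phosphorylated receptors, had 35.9 and 17.0 scaled CPM in IQ3pos, against 34.7 and 22.3 in IQ3neg (log2 difference -0.16, interval -1.60 to 1.27, and 0.57 in the deposited CPM). Rasa2, of the GAP1 family, had 26.9 and 29.1 in IQ3pos, against 11.4 and 38.4 in IQ3neg (log2 difference 0.39, interval -1.30 to 2.07). The IQ3neg pools bracketed the IQ3pos pools. Intervals of this width do not show that the levels were equal.

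Nf1, the neurofibromin gene lost in neurofibromatosis, ranged over 5.10 and 15.8 scaled CPM in IQ3pos and 47.1 and 11.1 in IQ3neg, and was chosen here after its values were seen. Its log2 difference was -2.98 between the pools of 3 mice and 0.48 between the pools of 4. Dab2ip ranged from 4.69 to 21.3 in IQ3pos and from 6.29 to 6.51 in IQ3neg, and Rasal2 from 0.0700 to 2.65 in IQ3pos and from 0.936 to 1.96 in IQ3neg. Rasa3 had 8 and 17 reads in IQ3pos and 0 in both IQ3neg libraries, where 0 reads allow up to 0.0380 and 0.00839 scaled CPM. Rasal1 had 8 to 122 reads in IQ3pos and 2 to 164 in IQ3neg. Reads without molecular identifiers are not independent molecules, so these limits cover counting error only.

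**Figure D2:**
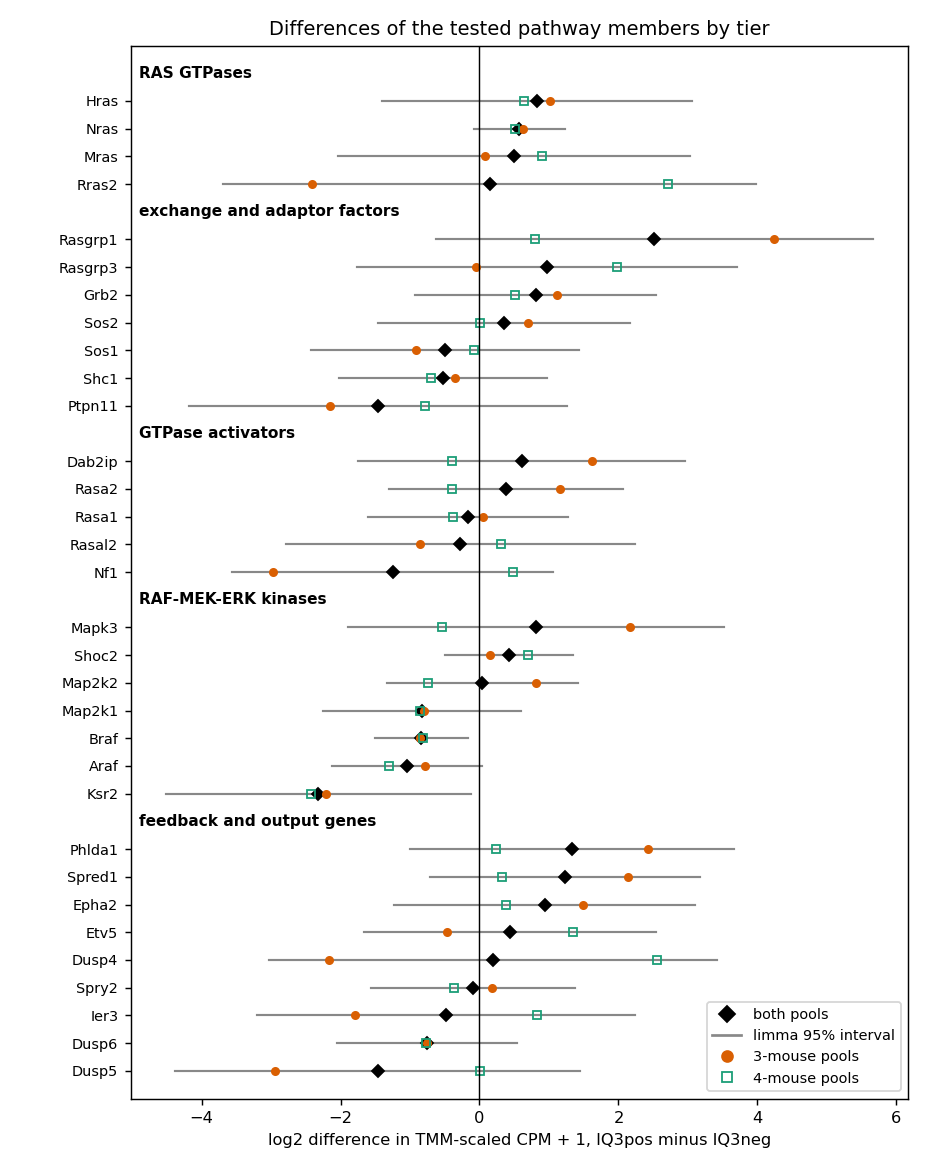
Log2 difference in TMM-scaled CPM + 1, IQ3pos minus IQ3neg, of the 32 tested genes by tier (diamond: both pools with limma's 95% interval as a grey line; circle: pools of 3 mice; square: pools of 4 mice). Map2k1, Braf, Araf, Ksr2 and Dusp6 lie left of 0 in both pools, while each GTPase activator has its pools on opposite sides of 0.

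In the RAF-MEK-ERK tier, 4 of 7 tested genes had IQ3pos below IQ3neg without overlap and none lay above. Of all genes, 23.0% lay below and 24.7% above. The tier's median log2 difference was -0.83. This median stayed at or under -0.77 in the other 3 composition scalings. It was -0.07 in the deposited CPM, where the median of all genes was 0.68. There, only Ksr2 was below without overlap and only Shoc2 above, where 14.2% and 40.9% of all genes were. Braf, the listed RAF kinase of higher level per kb (chr6:39603237-39725463), had 112 and 107 scaled CPM in IQ3pos, against 204 and 189 in IQ3neg. The pools of each fraction were close and the fractions well apart, at 110 ± 3.41 for IQ3pos and 197 ± 10.8 for IQ3neg (SD over 2 libraries). The log2 difference was -0.84, with an interval of -1.51 to -0.16, an unadjusted p of 0.0227 and an adjusted p of 0.249. In the deposited CPM, Braf had 141 and 145 in IQ3pos and 140 and 162 in IQ3neg, a log2 difference of -0.07. The lower place of Braf in IQ3pos is therefore a statement relative to the bulk of the genes, and not about its share of all reads.

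Araf, a second RAF kinase gene (chrX:20797814-20860519), had 33.0 and 40.4 scaled CPM in IQ3pos, against 57.7 and 101 in IQ3neg. Both IQ3neg pools were higher, and they differed among themselves more than the IQ3pos pools did (log2 difference -1.05, interval -2.12 to 0.03, adjusted p = 0.319). Map2k1, which encodes the ERK kinase MEK1 (chr9:64185770-64253631), had 15.8 and 11.0 scaled CPM in IQ3pos, against 28.2 and 20.7 in IQ3neg. Its difference was nearly the same for both pool sizes, at -0.80 and -0.85 on the log2 scale (adjusted p = 0.551). In the deposited CPM, Araf and Map2k1 overlapped between the fractions, with log2 differences of -0.29 and -0.10.

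Ksr2, a kinase-like scaffold that holds RAF, MEK and ERK together (chr5:117414000-117775003), had 0.184 and 0.0610 scaled CPM in IQ3pos, from 21 and 23 reads, against 4.49 and 4.68 in IQ3neg, from 355 and 1676 reads. The IQ3neg pools were nearly equal, and the mean was 37.5-fold lower in IQ3pos (0.122 ± 0.0869 in IQ3pos and 4.59 ± 0.136 in IQ3neg). On log2(scaled CPM + 1), which shrinks the change of such low levels, the difference was -2.32 with an interval of -4.51 to -0.13 (adjusted p = 0.295). It was below without overlap in all 5 scalings, and DESeq2 called it lower (adjusted p = 0.0355) where edgeR did not (adjusted p = 0.270). The enteroendocrine, chief and tuft cell markers given above were also lower in both IQ3pos libraries. Their part in the Ksr2 difference was not tested.

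The other tested genes of the tier overlapped between the fractions. Shoc2, a leucine-rich repeat protein that frees RAF from inhibition, had 83.9 and 138 scaled CPM in IQ3pos, against 75.2 and 85.2 in IQ3neg, with the IQ3pos pool of 3 mice inside the IQ3neg range (log2 difference 0.43, SE 0.37, adjusted p = 0.601). Map2k2, which encodes MEK2, ranged from 22.2 to 52.2 in IQ3pos and from 29.2 to 37.8 in IQ3neg, and Mapk3, which encodes the kinase ERK1, from 11.7 to 12.3 in IQ3pos and from 1.82 to 18.3 in IQ3neg. The log2 difference of Map2k2 was 0.04, and it was -0.18 in the scaling without the 20 most abundant genes. Ksr1, the close relative of Ksr2, lay under the filter with 15 and 12 reads in IQ3pos, against 2 and 0 in IQ3neg.

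**Figure D3:**
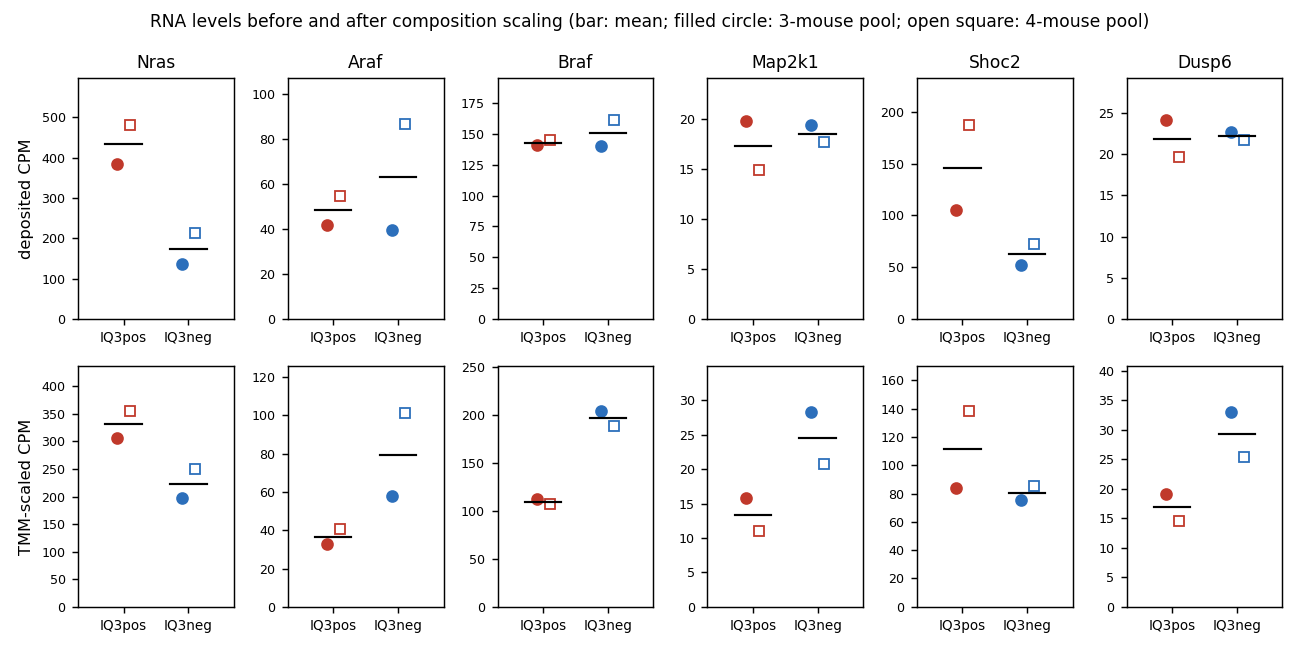
Deposited CPM (top) and TMM-scaled CPM (bottom) of Nras, Araf, Braf, Map2k1, Shoc2 and Dusp6 in IQ3pos and IQ3neg, with a bar at the mean of each fraction (filled circle: pool of 3 mice; open square: pool of 4 mice; each axis starts at 0). Nras is higher in IQ3pos on both scales, and Araf, Braf, Map2k1 and Dusp6 separate without overlap, lower in IQ3pos, on the scaled values only.

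The start regions of Nras and of the 3 kinase genes that lay lower in IQ3pos with more than 10 scaled CPM in every library are shown for comparison, since these genes took opposite places after scaling. Each runs from 250 bases before the start to 50 after it, 5′ to 3′ on the gene's strand, from RefSeq on GRCm38.p6. The regions are chr3:103058035-103058334 (plus strand) for Nras, chrX:20848293-20848592 (plus) for Araf, chr6:39725414-39725713 (minus) for Braf and chr9:64253556-64253855 (minus) for Map2k1. Capitals mark 4 motifs searched on both strands: CCGGAA, the core bound by ETS factors; TGANTCA, bound by AP-1; TGACGTCA, the cAMP response element; and GGGCGG, the GC box.
Nras: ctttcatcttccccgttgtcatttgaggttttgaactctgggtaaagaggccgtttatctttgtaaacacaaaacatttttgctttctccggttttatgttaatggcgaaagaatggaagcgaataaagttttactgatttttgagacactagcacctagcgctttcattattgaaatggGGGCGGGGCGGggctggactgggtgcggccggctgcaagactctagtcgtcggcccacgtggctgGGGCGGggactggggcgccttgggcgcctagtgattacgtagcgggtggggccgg
Araf: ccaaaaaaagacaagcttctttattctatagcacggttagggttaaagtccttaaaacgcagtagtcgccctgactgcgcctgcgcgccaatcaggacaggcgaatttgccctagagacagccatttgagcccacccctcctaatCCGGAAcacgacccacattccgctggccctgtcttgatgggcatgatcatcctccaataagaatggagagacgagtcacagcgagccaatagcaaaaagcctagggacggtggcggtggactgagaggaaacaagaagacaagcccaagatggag
Braf: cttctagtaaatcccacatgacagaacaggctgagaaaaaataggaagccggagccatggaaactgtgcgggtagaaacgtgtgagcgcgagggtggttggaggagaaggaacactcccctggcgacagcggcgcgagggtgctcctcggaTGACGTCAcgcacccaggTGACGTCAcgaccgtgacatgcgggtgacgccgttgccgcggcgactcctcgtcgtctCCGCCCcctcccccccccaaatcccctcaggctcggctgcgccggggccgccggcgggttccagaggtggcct
Map2k1: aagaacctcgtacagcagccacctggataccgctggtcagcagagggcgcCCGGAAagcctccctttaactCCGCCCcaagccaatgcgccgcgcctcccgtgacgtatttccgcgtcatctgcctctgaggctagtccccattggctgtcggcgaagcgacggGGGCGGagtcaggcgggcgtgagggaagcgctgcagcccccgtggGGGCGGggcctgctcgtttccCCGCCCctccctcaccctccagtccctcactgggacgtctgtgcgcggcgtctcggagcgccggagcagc
Nras held 3 GC boxes, 2 of which overlap by a base, and no ETS core. Araf held 1 ETS core and no GC box. Braf held 2 cAMP response elements and 1 GC box, and Map2k1 held 1 ETS core and 4 GC boxes. None of the 4 held TGANTCA. GC content was 52.3% for Nras, 52% for Araf, 65% for Braf and 69% for Map2k1.

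Of 32851 mouse promoters of this length, 14.9% held CCGGAA, 7.81% TGANTCA, 1.79% TGACGTCA and 35.7% GGGCGG. Promoters were matched for 35 of the 42 members, with 47 promoters in all. At least 1 promoter held CCGGAA in 13 of these 35 genes, TGANTCA in 2, TGACGTCA in 3 (Braf, Epha2 and Ptpn11) and GGGCGG in 27. The shares are per promoter, while the member counts are per gene with any match, and some members had more than 1 promoter. The member counts therefore cannot be set against these shares. These matches describe the letters only.

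The feedback and output tier held 9 tested genes of 14, with 3 above and 1 below without overlap (all genes: 24.7% and 23.0%). Spry2, an inhibitor made in response to ERK, was the member of highest mean scaled CPM. It had 553 and 183 scaled CPM in IQ3pos, against 487 and 237 in IQ3neg, and stood below Nras in both pools of 4 mice. The pools of 3 mice were high and those of 4 mice low in both fractions, and the log2 difference was -0.09 (interval -1.56 to 1.38, adjusted p = 0.955), or 0.67 in the deposited CPM. Dusp6, the cytoplasmic phosphatase of ERK and a common readout of its activity (chr10:99263231-99267489), had 19.2 and 14.6 scaled CPM in IQ3pos, against 33.0 and 25.4 in IQ3neg. Its log2 difference was -0.75 in the pools of 3 mice and -0.76 in those of 4 (both pools -0.76, interval -2.05 to 0.53, adjusted p = 0.546), but -0.02 in the deposited CPM, where the fractions overlapped.

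Spred1, which brings neurofibromin to RAS, had 21.4 and 13.7 scaled CPM in IQ3pos, against 4.07 and 10.7 in IQ3neg (log2 difference 1.23, SE 0.79, adjusted p = 0.512). Phlda1, a gene induced by growth signals, had 14.5 and 8.61 scaled CPM in IQ3pos, against 1.90 and 7.14 in IQ3neg (log2 difference 1.33, SE 0.95, adjusted p = 0.555), and overlapped in the scaling without the 20 most abundant genes. In both genes the IQ3neg pool of 3 mice was the lowest library, and the differences between the pools of 4 mice were 0.32 for Spred1 and 0.24 for Phlda1. Epha2, an ephrin receptor that ERK induces, had 1.88 and 1.52 scaled CPM in IQ3pos, against 0.0253 and 0.928 in IQ3neg (adjusted p = 0.619), and its lowest library, the IQ3neg pool of 3 mice, held 2 reads.

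The remaining tested output genes overlapped between the fractions. Dusp5, the nuclear phosphatase of ERK, had 4 and 4 reads in IQ3pos, against 550 and 2 in IQ3neg, so that DESeq2's call (adjusted p = 0.0243) rests on the IQ3neg pool of 3 mice. Dusp4 had 3 and 1873 reads in IQ3pos, against 286 and 4 in IQ3neg. Ier3 ranged from 1.21 to 2.44 scaled CPM in IQ3pos and from 0.945 to 6.66 in IQ3neg. Etv5, an ETS factor that ERK induces, ranged from 6.08 to 16.7 in IQ3pos and from 5.94 to 8.78 in IQ3neg. Under the filter, Spry1 had 4 and 532 reads in IQ3pos and 0 and 158 in IQ3neg, and Spry4 had 4 and 4 in IQ3pos and 0 and 680 in IQ3neg. Spred2 had 7 to 15 reads in IQ3pos and 25 to 898 in IQ3neg, and was lower in both IQ3pos libraries in scaled CPM too. Etv4 had 2 and 5 reads in IQ3pos and 0 and 154 in IQ3neg, and Fosl1, a partner in AP-1, had 4 reads in 1 IQ3pos library and 0 in the others.

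**Figure D4:**
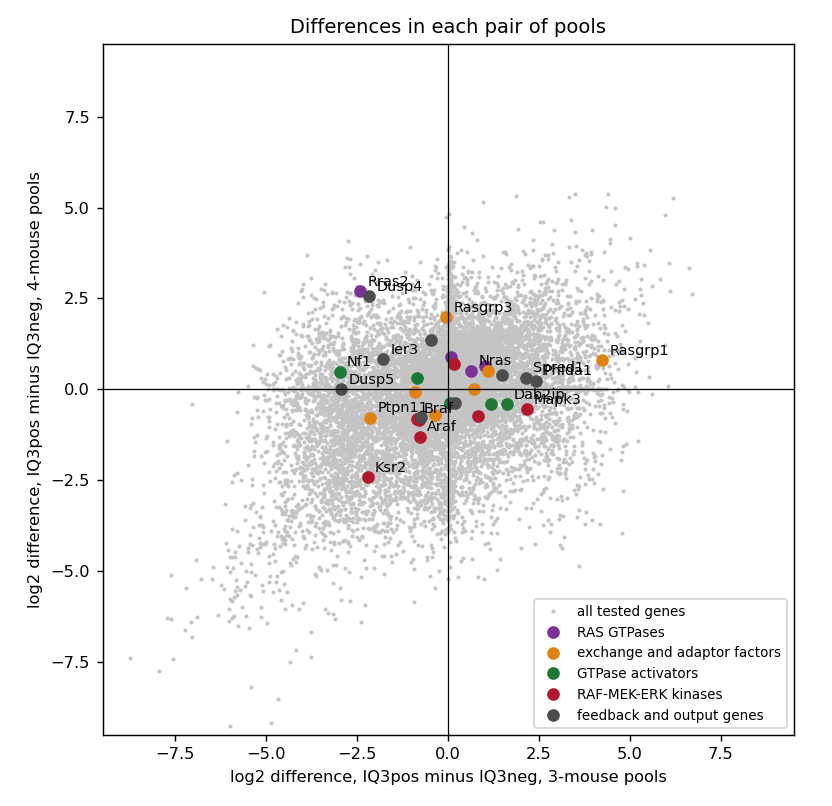
Log2 difference in TMM-scaled CPM + 1, IQ3pos minus IQ3neg, in the pools of 3 mice (x axis) and of 4 mice (y axis); grey dots are the 13019 tested genes and coloured points the 32 pathway genes by tier. Rras2 and Dusp4 lie in the upper left, with opposite differences in the pools, and Ksr2 lies farthest toward the lower left among the members.

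Set by pool size, 10 tested members were higher and 8 lower in IQ3pos for both sizes, and 14 had opposite directions. These counts match pools by size, and whether matched pools share mice is not known. Of all 13019 genes, 4457 were higher, 3887 lower and 4476 (34.4%) opposite. The RAS GTPases counted 3 higher, 0 lower and 1 opposite, the exchange and adaptor factors 3, 3 and 1, the GTPase activators 0, 0 and 5, the kinase tier 1, 4 and 2, and the feedback and output genes 3, 1 and 5. Between the libraries of a fraction, 2 of the 32 tested members (6.25%) differed by more than 10-fold in scaled CPM + 1, Rras2 in IQ3pos and Rasgrp1 in IQ3neg, against 8.86% of all genes. The added 1 hides wide gaps of low genes, such as Rasgrp3 at 0.0175 and 4.94 scaled CPM in IQ3pos and Dusp5 at 6.96 and 0.00559 in IQ3neg. In the GENCODE vM21 annotation, 12 of the 42 members share exon bases with a gene on the opposite strand, among them Braf with Ndufb2 and Shoc2 with Bbip1, and 0 with a gene on the same strand. The strand setting of the counting is not given in the sources used here, so reads of such pairs cannot be told apart in the shared bases.

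A further 77 genes of the pathway were taken from textbook knowledge, of which 76 were in the table and 58 tested. By limma, 0 were called in either direction. At an unadjusted p under 0.05, 3 were higher (5.17%) and 4 lower (6.90%), against 7.63% and 8.32% of all genes. Without overlap, 11 lay above (19.0%) and 16 below (27.6%), against 24.7% and 23.0% of all genes. Their median log2 difference was -0.22. The other RAS-family GTPases had 3 of 9 tested genes above, 0 below and a median of 0.74. Rheb, the GTPase that activates mTORC1, had 371 and 339 scaled CPM in IQ3pos, against 198 and 179 in IQ3neg, with the fractions well apart (log2 difference 0.91, SE 0.25, unadjusted p = 0.0107, adjusted p = 0.210). Rap2a, of the RAP branch of the family, had 25.4 and 15.6 in IQ3pos, against 0.101 and 4.70 in IQ3neg (log2 difference 3.06, SE 1.10, adjusted p = 0.271). Rheb and Rap2a were above without overlap in all 5 scalings.

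Of the other exchange and adaptor factors, 1 of 10 tested genes lay above and 2 below (all genes: 24.7% and 23.0%), with a median of -1.18. Rasgrf2, a calcium-responsive exchange factor, had 11.6 and 7.46 scaled CPM in IQ3pos, against 32.6 and 20.9 in IQ3neg (log2 difference -1.39, SE 0.63, adjusted p = 0.348). Gab1, a docking protein of receptor kinases, had 7.83 and 6.94 in IQ3pos, against 21.3 and 12.9 in IQ3neg (log2 difference -1.07, adjusted p = 0.523). Both had their fractions apart. Lztr1, an adaptor for RAS degradation listed with the other GTPase activators, had 51.0 and 20.7 in IQ3pos, against 27.3 and 29.3 in IQ3neg, and overlapped.

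The 8 genes of RAS lipid modification and trafficking had a median of 0.06, with 1 above and 1 below (all genes: 24.7% and 23.0%). Fnta, the shared subunit of the prenyl transferases, had 39.6 and 79.4 scaled CPM in IQ3pos, against 30.1 and 34.8 in IQ3neg (log2 difference 0.78, adjusted p = 0.499). Icmt, which methylates the prenylated end of RAS, had 3.67 and 2.66 in IQ3pos, against 0.00 and 3.33 in IQ3neg, and overlapped. Among kinase scaffolds and regulators, 4 of 10 tested genes lay above and 4 below, with a median of -0.47. Lamtor3, a MEK1 scaffold on late endosomes, had 168 and 118 in IQ3pos, against 67.8 and 61.2 in IQ3neg (log2 difference 1.12, SE 0.34, unadjusted p = 0.0170, adjusted p = 0.233). Erbin, a scaffold that binds the receptor ERBB2, had 39.5 and 26.6 in IQ3pos, against 60.1 and 79.7 in IQ3neg (log2 difference -1.07, SE 0.42, adjusted p = 0.303). Both had their fractions apart, in opposite directions, but Erbin overlapped in the deposited CPM, with a log2 difference of -0.32.

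**Figure D5:**
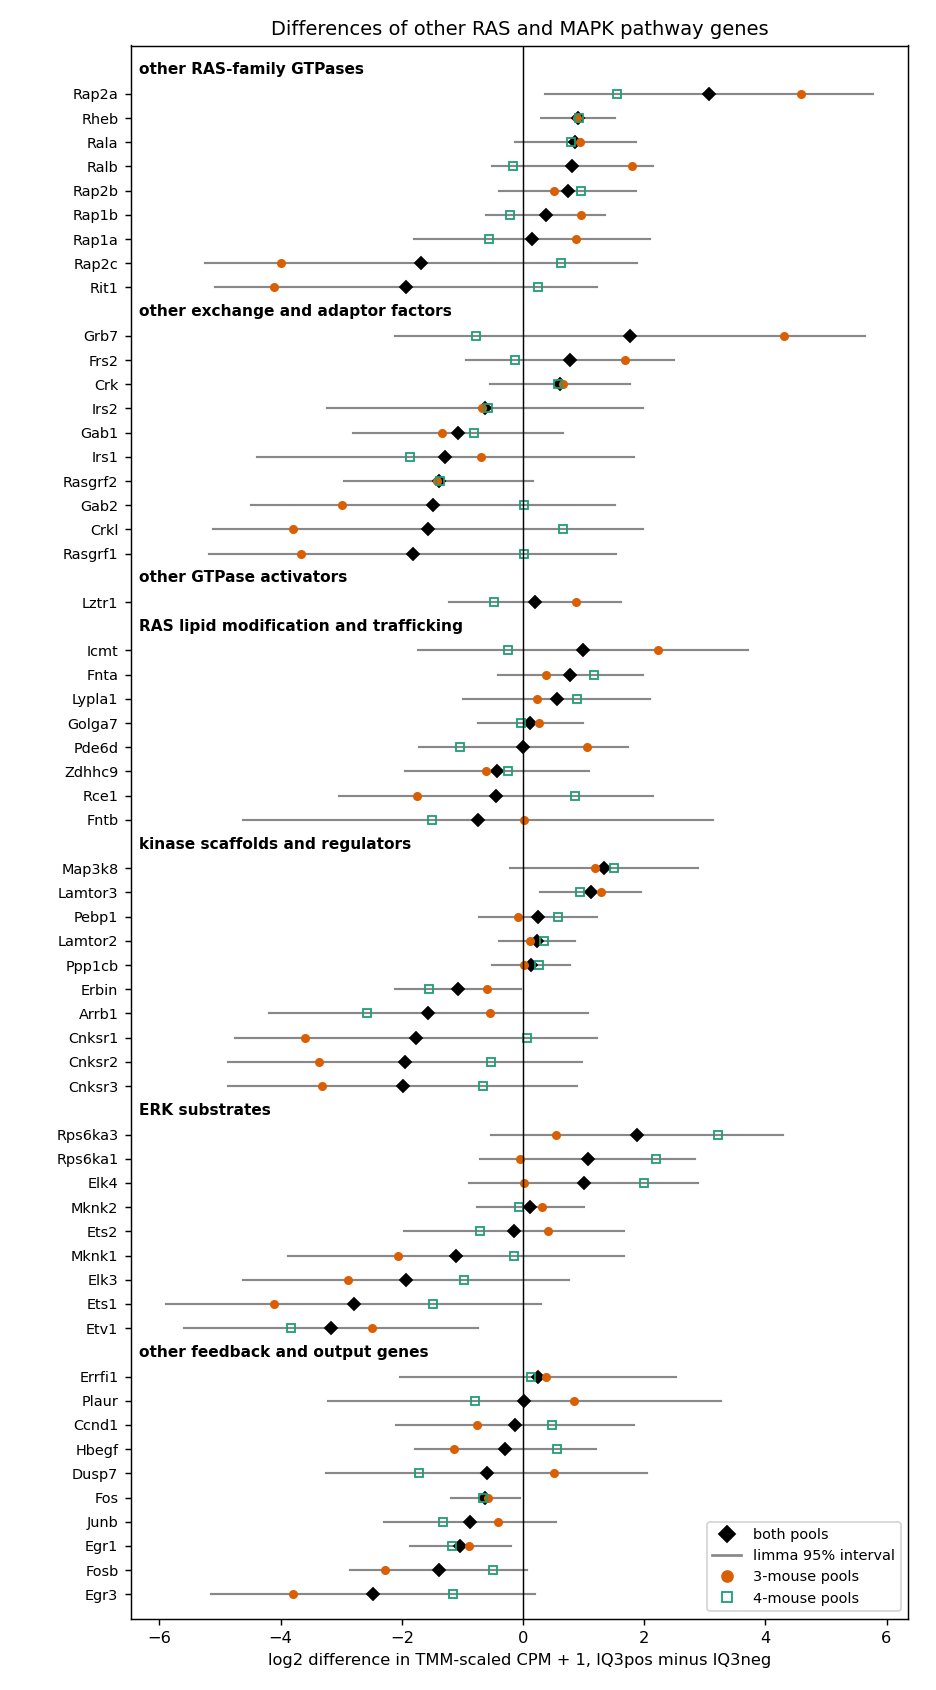
Log2 difference in TMM-scaled CPM + 1, IQ3pos minus IQ3neg, of tested further pathway genes by list (diamond: both pools with limma's 95% interval as a grey line; circle: pools of 3 mice; square: pools of 4 mice). Rap2a and Rheb lie right of 0 in both pools, and Etv1, Egr1 and Fos lie left of 0 in both.

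Of the ERK substrates, 2 of 9 tested genes lay above and 3 below (all genes: 24.7% and 23.0%). Etv1, an ETS factor, had 1.19 and 0.00 scaled CPM in IQ3pos, against 11.3 and 13.3 in IQ3neg (log2 difference -3.16, SE 0.99, unadjusted p = 0.0189, adjusted p = 0.239). Ets1, a further ETS factor, had 0.0175 and 8.86 in IQ3pos, against 16.5 and 26.7 in IQ3neg (adjusted p = 0.344). Both IQ3neg libraries were the higher ones in each, but Ets1 overlapped in the deposited CPM, with a log2 difference of -2.23. The further feedback and output genes had 0 of 10 tested genes above and 5 below, with a median of -0.61, or 0.02 in the deposited CPM. Egr1, an immediate early transcription factor, had 161 and 101 in IQ3pos, against 299 and 230 in IQ3neg (log2 difference -1.03, SE 0.34, adjusted p = 0.251), and overlapped in the deposited CPM, with a log2 difference of -0.27. Fos, the AP-1 subunit, had 420 and 356 in IQ3pos, against 629 and 561 in IQ3neg (log2 difference -0.62, SE 0.23, adjusted p = 0.290), but was above without overlap in the deposited CPM, with a log2 difference of 0.15. Fos and Egr1 are also on the list of 8 dissociation stress genes, which summed to 829 and 648 scaled CPM in IQ3pos and 1605 and 1237 in IQ3neg, with 6 of 8 below, none at 0 in all libraries, and its part in these values not tested.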

How the data were processed

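Bulk SMART-Seq2 RNA was measured in 2 IQ3pos and 2 IQ3neg libraries. The deposited values are CPM (counts per 1000000 reads in genes), with no composition factor, since each column of the authors' table sums to 1000000. STAR 2.7.1a, featureCounts, Subread 2.0.0 and edgeR with GRCm38/mm10 were used, per the submitters' processing notes. The sources used here do not state the annotation, the strand setting, or what was done with multi-mapped reads. The deposited CPM gave whole reads for 100% of values within 0.05 of a whole number. A single read was worth 0.00265 to 0.0127 scaled CPM.

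From these CPM, TMM factors were computed over 13019 genes averaging 1 CPM or more, at 1.26 and 1.35 in IQ3pos and 0.687 and 0.855 in IQ3neg. Fractions were compared by limma-trend (version 3.58.1 of limma in R 4.3.3) on log2(scaled CPM + 1), IQ3pos minus IQ3neg, two-sided, with Benjamini-Hochberg adjustment at 0.05 over all 13019 genes. There were 2 residual and 3.89 prior degrees of freedom, and intervals are limma's 95% ones. Fold changes on this scale understate the change of low genes. edgeR 4.0.16 (quasi-likelihood) and DESeq2 1.42.0 were run on the recovered reads as alternatives, and edgeR called 11 genes higher and 38 lower. Other alternatives changed the scaling, filter, pseudocount and replicate block or left out a library.

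Members and lists were chosen with earlier results of these data known. Named are, per tier, tested members whose fractions do not overlap and the 2 of highest mean scaled CPM. For further lists they are called genes or else the 2 of smallest unadjusted p; 1 such gene is not reported here. Members outside this rule are given by range, by reads or with a remark. Coordinates are 1-based from GENCODE vM21 on GRCm38, and 53647 of 55335 symbols matched.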

Additional observations from a re-analysis of the deposited data

How the results depend on the processing

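The threshold side of every named pathway gene held under 16 alternatives, except that DESeq2's Wald test called 3 members lower, 1 of them under the filter. Over all genes, limma called 6 higher and 24 lower. These counts were 0 and 0 on deposited CPM, 2 and 9 without the 20 most abundant genes, 0 and 2 with a filter of 0.1 CPM, 45 and 82 with a filter of 5 CPM, 0 and 0 with no filter, 0 and 2 with a pseudocount of 0.25, 34 and 62 with a pseudocount of 4, 11 and 38 with edgeR, and 1064 and 2063 with DESeq2. TMM factors from all rows, an alternative chosen after seeing the data, called 3 higher. Leaving out each library in turn called 0 to 0 in both directions, with 1 library assumed to vary like the others. With a replicate block, 242 were higher and 155 lower, and 0 members were called. The labels do not say that a shared number means the same mice, and the correlation of same-numbered deviations was 0.140 over 13019 genes with only 2 pairs, so the block is given here alone.

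Members with IQ3pos above IQ3neg numbered 8, but 5 without the 20 most abundant genes, 12 on deposited CPM and 9 to 13 with a library left out, the most without the IQ3pos pool of 3 mice. Those below numbered 7, but 1 on deposited CPM and 9 to 12 with a library left out. On deposited CPM, 40.9% of all genes lay above and 14.2% below. The 9 came without the IQ3neg pool of 3 mice or the IQ3pos pool of 4, the 11 without the IQ3neg pool of 4, and the 12 without the IQ3pos pool of 3. A lone library overlaps less by construction. Of all genes, 34.0% to 40.0% then lay above and 32.8% to 38.7% below, and 28 to 32 members were tested. Without the 20 most abundant genes, 19.3% of all genes lay above and 26.9% below.

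Log2 differences changed sign on deposited CPM for Spry2 (0.67), Rasa1 (0.57), Sos1 (0.21), Shc1 (0.19), Fos (0.15), Rasal2 (0.0907) and Ier3 (0.0528). Without the 20 most abundant genes they did so for Rras2 (-0.24), Map2k2 (-0.18) and Lztr1 (-0.0176). Map2k2 was -0.13 with a filter of 5 CPM, Rras2 was -0.42 with a pseudocount of 0.25, and Rasal2 was 0.0191 with edgeR. The cause was not tested. With a library left out, sign changes came with ranges of -0.45 to 1.57 for Dab2ip, -0.95 to 1.36 for Dusp4, -0.22 to 1.01 for Etv5, -0.11 to 2.09 for Icmt, -1.52 to 0.50 for Ier3, -0.51 to 0.82 for Lztr1, -0.64 to 0.63 for Map2k2, -0.62 to 2.19 for Mapk3, -0.0853 to 1.33 for Mras, -0.77 to 0.35 for Rasa1, -0.49 to 1.19 for Rasa2, -0.66 to 0.53 for Rasal2, -1.86 to 2.14 for Rras2, -1.21 to 0.14 for Sos1 and -0.98 to 0.69 for Spry2. Of 717 gene values under alternatives, 682 kept their direction and side of the threshold, 33 changed sign and 2 passed the threshold. With 2 libraries per fraction, the median SE of a log2 difference was 0.91.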
